A study of Xenopus laevis with 6 samples.

Results

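The probe sets described here measure transcripts of microtubule motors and of the microtubule itself: kinesins, cytoplasmic dyneins, tubulins, tubulin folding cofactors and a few microtubule-binding families. They were chosen by gene symbol alone, as the probe sets whose platform symbol begins with kif, dync, dynl, tuba, tubb, tubg, tbca to tbce, map1, mapre or stmn. This found 110 of the 32634 probe sets on the array. Of these, 107 carry 1 symbol and name 84 of the 11302 genes named that way, counting each homeolog. The other 3 carry the symbols of both homeologs of a gene and are given apart. The samples are dorsal pieces of Xenopus laevis gastrulae at stage 10.5. Embryos had been injected at the 4-cell stage, in both dorsal blastomeres, with 10 ng of a morpholino (MO), a synthetic antisense oligonucleotide, either anti apcdd1 MO or control MO, and were kept at 16 degrees C. Each of the 6 arrays, 3 per group, measured RNA from a batch of 10 embryos. The treatment text of the control samples names the apcdd1 oligonucleotide, so the grouping follows their titles and genotype labels, which name the control MO. Embryos of the depleted group alone were marked with a dye on the ventral side, because some formed the dorsal lip late, and this step cannot be told apart from the depletion. Separate clutches are not named for the batches in the labels, so a p-value here weighs a difference against the spread of these batches, which may be technical. The labels do not give the kind of apcdd1 morpholino either, and no RNA level measures the depletion.

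Microtubules are hollow polymers of alpha and beta tubulin dimers, nucleated by a ring of gamma tubulin and its complex proteins. Kinesins and dyneins walk along them using ATP. One set of kinesins builds the spindle, moves chromosomes and completes cell division, while others, with cytoplasmic dynein, carry cargo through the cell or into cilia. Stathmin binds free tubulin dimers and promotes disassembly, and EB proteins ride on growing ends. Xenopus laevis is allotetraploid, and a gene's copies on the long and the short chromosome set, its homeologs, end in .L and .S. Embryos at this stage still use RNA and protein that is partly maternal. In bulk tissue fewer cells of a type cannot be told apart from less RNA per cell.

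Few members of the family differed between the groups, and the ones that did were mostly lower in depleted embryos. The 6 probe sets called lower included those of a beta tubulin (tubb.L), an alpha tubulin (tuba1cl.3.L) and gamma tubulin (tubg1.S). The rest were of a transport kinesin (kif3a.L), a dynein light chain (dynlrb2.S) and stathmin (stmn1.L). Other probe sets of tubb.L and tubg1.S did not pass, and that of tuba1cl.3.L may also match other transcripts. The 1 called higher was map1lc3a.S, which encodes an LC3 protein of autophagy and entered the family through its symbol. Of the 107 probe sets, 74 (60 genes) were bright enough to test. In all, 7 of these 74 passed an adjusted p of 0.05 in limma (9.46%), against 6.62% of all 19484 tested probe sets. For the 6 lower calls the background is 3.61% and for the single higher call 3.00%. Log2 changes were negative for 50 of the 74 and for 9728 of the 19484, and their medians were -0.03 and 3e-04. The groups did not overlap in 16 of the 74 (21.6%), against 24.7% of all tested probe sets. Without control batch 2 the lower calls went from 6 to 3, and with each probe set's own variance alone no member was called.

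**Figure D1:**
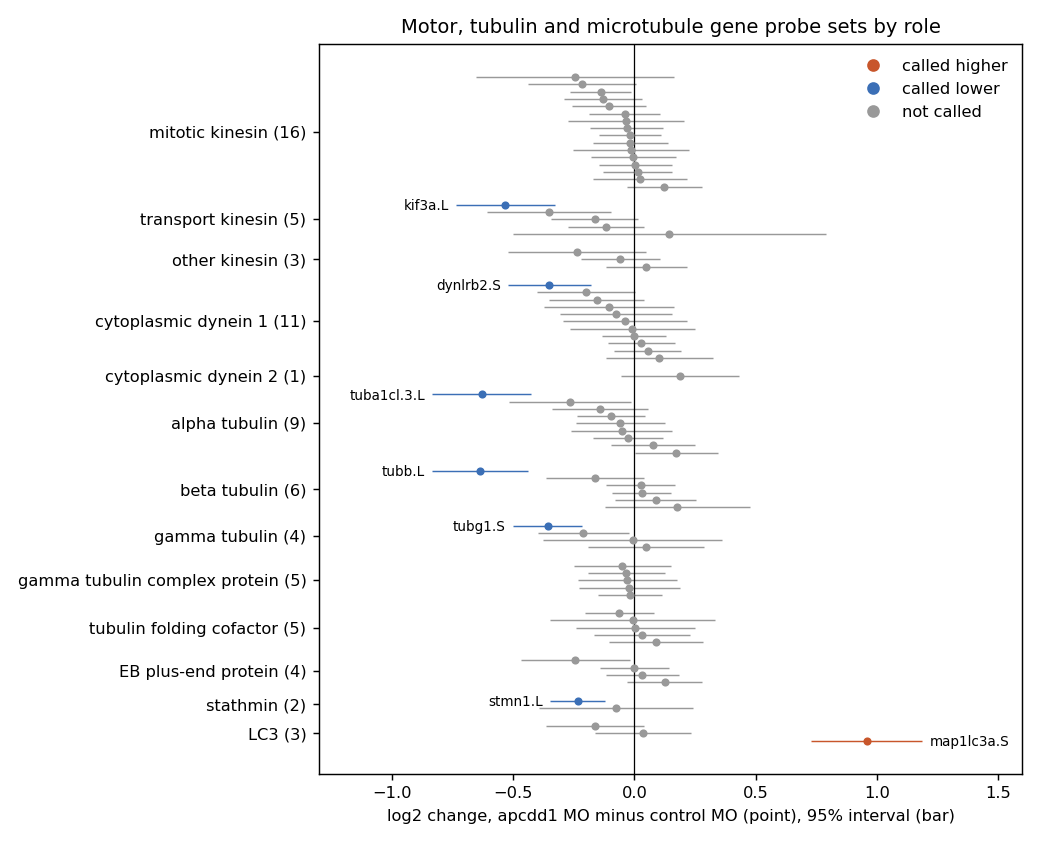
Log2 change of each of the 74 tested probe sets (points) with its 95% interval from limma (bars), grouped by role, with the number of probe sets in parentheses. The 16 mitotic kinesin probe sets lie between -0.24 and 0.12 and none is called, against 6.62% of all tested probe sets. None is called either among other kinesins, dynein 2, gamma tubulin complex proteins, folding cofactors and EB proteins. In the remaining groups single members reach -0.64, and map1lc3a.S reaches 0.96.

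No transcript of a mitotic kinesin was called different. None of the 16 tested probe sets, for 14 genes, passed the test (6.62% of all probe sets did), and 1 had an unadjusted p under 0.05 (19.0% of all). The groups did not overlap in 3 of the 16, or 18.8%, against 24.7% of all, and the median log2 change was -0.03. Of these changes 4 were positive and 12 negative, from -0.24 to 0.12. kif11, whose product slides spindle microtubules apart, had log2 changes of 0.12 ± 0.07 for kif11.S and -0.01 ± 0.11 for kif11.L (SE). Its S homeolog read 351, 359 and 327 in control and 387, 359 and 382 in depleted arrays, so the lowest depleted array stood just above the highest control array. For kif20a.L, a kinesin of cytokinesis, the probe set ending in _x_at was at -0.14 ± 0.06 (limma adjusted p = 0.211), without overlap, and the other at -0.02 ± 0.06. The spindle kinesin kif15.L was at -0.22 ± 0.10 (adjusted p = 0.277 in limma), and kifc1.L, a minus-end-directed motor of the spindle, at -0.13 ± 0.07 (adjusted p = 0.382).

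The intervals show which sizes the arrays leave possible. For kif20a.S the 95% interval of the log2 change ran from -0.15 to 0.15, for kif22.L, a motor that pushes on chromosome arms, from -0.13 to 0.16, and for kif4a.S, a chromosome-bound motor, from -0.19 to 0.11. The widest was that of kif18a.L, which controls chromosome alignment, from -0.65 to 0.17. Its control arrays spread from 66.5 and 56.7 in batches 1 and 2 to 38.6 in batch 3, and the depleted arrays, at 46.5, 46.2 and 40.9, lay inside that range. Without control batch 3, kif18a.L was called lower (log2 change -0.47, adjusted p = 0.0440 in limma), so this result turns on 1 array. With array weights, which called 22.8% of all probe sets, kif18a.L, kif15.L and the _x_at probe set of kif20a.L were called lower.

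Among the transport kinesins, kif3a.L fell and the others did not pass. Kif3a is a motor subunit of heterotrimeric kinesin-2, which carries material into cilia and moves organelles. Its signal was 131, 132 and 124 in control and 86.5, 98.8 and 83.0 in depleted arrays. All 3 depleted arrays lay below the lowest control array. The fall was 1.45-fold, from 129 ± 4.31 to 89.5 ± 8.29 (SD, n = 3), a log2 change of -0.53 ± 0.09 (SE; adjusted p = 0.00709 in limma). It stayed past the threshold when any one array was left out.

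The other subunits of the same motor were not called. kif3b.S, the second motor subunit, read 276, 295 and 318 in control and 247, 271 and 275 in depleted arrays, so the groups only just failed to overlap. Its log2 change was -0.16 ± 0.08 (SE; limma adjusted p = 0.311). kifap3.L, the cargo-binding subunit and no member by symbol, read 280, 252 and 250 against 222, 220 and 236, with -0.21 ± 0.08 (limma adjusted p = 0.160). Depleted arrays lay below control arrays without overlap for all 3 subunits, as for 12.8% of all tested probe sets.

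**Figure D2:**
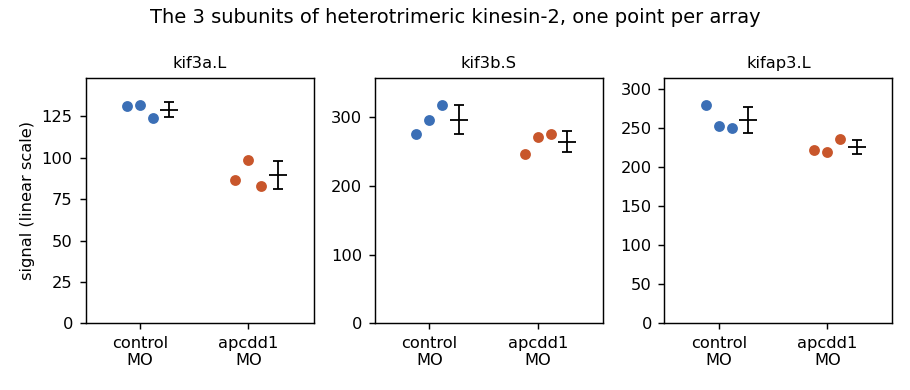
Signal on a linear scale in each array (points, batches 1 to 3 from left to right) with the group mean and SD (black, n = 3) for the 3 subunits of heterotrimeric kinesin-2. All depleted arrays lie below all control arrays for each subunit, as for 12.8% of all tested probe sets, and kif3a.L alone is called.

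The remaining transport kinesins gave a median of -0.16 over 5 tested probe sets together with kif3a.L and kif3b.S. kifc3.S, a minus-end-directed motor, read 135, 109 and 116 in control and 85.7, 90.1 and 107 in depleted arrays. The groups did not overlap, and the log2 change of -0.35 ± 0.11 did not pass (limma adjusted p = 0.111). kif5b.S, the heavy chain of conventional kinesin, was at -0.12 ± 0.07, and kif21a.L at 0.14 ± 0.27. The 3 kinesins of other or several roles did not pass: kif19.S, a ciliary kinesin, at -0.24 ± 0.13, and the microtubule depolymerase gene kif2a at -0.06 ± 0.07 for L and 0.05 ± 0.07 for S (SE). Set side by side, 0 of 16 mitotic and 1 of 5 transport probe sets were called, with medians of -0.03 and -0.16 and 6.62% called among all probe sets. The groups did not overlap in 18.8% and 60% of them, against 24.7% of all. An unadjusted limma p under 0.05 was found for 1 mitotic and 2 transport probe sets, against 19.0% of all. With 5 transport probe sets these counts do not separate the classes, and their difference was not tested.

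Of 11 tested probe sets grouped under cytoplasmic dynein 1, 1 fell and 0 rose, against 3.61% and 3.00% of all tested probe sets. The group takes in light chains that may also serve dynein 2. dynlrb2.S, a roadblock light chain that binds the intermediate chains, read 621, 551 and 540 in control and 454, 421 and 466 in depleted arrays. All depleted arrays were below all control arrays. The fall was 1.28-fold, with a log2 change of -0.35 ± 0.08 (SE; adjusted p = 0.0232 in limma). The size of the fall changed little when single arrays were left out, with log2 changes from -0.39 to -0.29, but the call was lost in most cases, with adjusted p = 0.0535 without control 1, 0.0737 without control 2, and 0.0603, 0.0922 and 0.0606 without depleted 1, 2 and 3. It passed only where control 3 was the array left out.

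The other dynein chains did not pass. dync1i2.S, an intermediate chain that links the motor to dynactin, was at 0.03 ± 0.06 (SE). The light intermediate chain genes dync1li1.L, dync1li1.S and dync1li2.S, whose products hold cargo adaptors, were at -0.04 ± 0.11, -0.01 ± 0.11 and 0.10 ± 0.10. The light chain gene dynll1 was negative on each of its tested probe sets, -0.20 ± 0.09 and -0.16 ± 0.09 for dynll1.L (limma adjusted p = 0.268 and 0.384) and -0.08 ± 0.10 for dynll1.S. A further probe set that carries both dynll1 symbols was at -0.16 ± 0.07 (limma adjusted p = 0.263). The light chain genes dynll2.S and dynlt3.L were at 0.05 ± 0.06 and -0.10 ± 0.12. The only tested member grouped under dynein 2 alone, the motor of return transport in cilia, was dync2i2.L at 0.19 ± 0.11 (limma adjusted p = 0.402).

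Tubulins held the largest decreases of the family, each on 1 probe set. tubb.L, a beta tubulin, read 1140, 1195 and 1272 in control and 672, 815 and 840 in depleted arrays. The fall was 1.56-fold, from 1202 ± 66.2 to 776 ± 90.6 (SD, n = 3), a log2 change of -0.64 ± 0.09 (SE; limma adjusted p = 0.00242), and no array of one group reached the other. Another probe set of the same gene did not show it: it read 266, 259 and 259 against 257, 283 and 295, at 0.09 ± 0.07 (adjusted p = 0.593). The 95% intervals of the 2 probe sets, -0.84 to -0.44 and -0.08 to 0.25, do not overlap, so the level of tubb.L as a gene is not settled by these arrays.

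tuba1cl.3.L, an alpha tubulin, read 215, 226 and 213 in control and 124, 152 and 148 in depleted arrays. It fell 1.55-fold, from 218 ± 6.77 to 141 ± 14.9 (SD, n = 3), a log2 change of -0.63 ± 0.09 (SE; limma adjusted p = 0.00303), without overlap. Its only probe set has the ending _x_at, which in Affymetrix naming marks probes that may also match other transcripts, so RNA of other alpha tubulins cannot be told apart there. The falls of both tubulin probe sets held when any one array was left out.

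The other alpha and beta tubulins did not pass, and the 15 tested probe sets of both kinds had a median of -0.05. tuba1c.S, on its plain _at probe set, read 1350, 1523 and 1657 in control and 1778, 1660 and 1652 in depleted arrays, at 0.17 ± 0.08 (adjusted p = 0.259), with overlap, and its other probe set was at -0.06 ± 0.08. tubal3.1.S was at -0.27 ± 0.11 (limma adjusted p = 0.235) on one probe set and -0.03 ± 0.06 on the other, and tubal3.1.L at -0.10 ± 0.06, without overlap. tubb4a.S was at 0.03 ± 0.05 and 0.03 ± 0.06, tubb4b.L at 0.18 ± 0.13 and tubb4b.S at -0.16 ± 0.09. tuba5.S was at -0.14 ± 0.09, and tuba4b.L at -0.05 ± 0.09 and 0.08 ± 0.08 (SE). Of the 15 probe sets 2 were called lower (13.3%) and 0 higher, against 3.61% and 3.00% of all tested probe sets. These calls are those of tubb.L and tuba1cl.3.L above, and the other probe set of tubb.L did not pass.

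Gamma tubulin, which starts new microtubules at the centrosome, was called lower on 1 probe set of its S homeolog. One tubg1.S probe set read 467, 455 and 445 in control and 341, 364 and 362 in depleted arrays. It fell 1.28-fold, from 456 ± 11.2 to 355 ± 12.9 (SD, n = 3), a log2 change of -0.36 ± 0.06 (SE; limma adjusted p = 0.00917). Without control 2 the adjusted p was 0.0546. The second tubg1.S probe set read 295, 287 and 270 against 254, 221 and 263, also without overlap, at -0.21 ± 0.08 (adjusted p = 0.208). tubg1.L was at -0.01 ± 0.16 and 0.05 ± 0.11 on its probe sets. In the comparison of pairs below, the tubg1 homeologs were not called different (limma adjusted p = 0.265).

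The proteins that work with gamma tubulin, and those that fold tubulin, showed no called member. The 5 tested probe sets of gamma tubulin complex genes, 4 for tubgcp3.S and 1 for tubgcp6.L, lay between -0.05 and -0.02. The 5 for the folding cofactors tbca.S, tbcb.L, tbcb.S and tbce.L, which assemble the tubulin dimer, lay between -0.06 and 0.09. In both groups 0 of 5 probe sets had an unadjusted p under 0.05, against 19.0% of all tested probe sets.

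stmn1.L, the stathmin gene, read 2095, 1999 and 1960 in control and 1728, 1692 and 1725 in depleted arrays. The groups did not overlap, and the fall was the smallest of the called ones, 1.18-fold, from 2018 ± 69.2 to 1715 ± 19.9 (SD, n = 3), with a log2 change of -0.23 ± 0.05 (SE; limma adjusted p = 0.0220). It did not pass without control 1 (adjusted p = 0.0535), control 2 (0.0838), depleted 1 (0.0531), depleted 2 (0.0785) or depleted 3 (0.0813), nor with the batch number as a block (0.0655) or with limma's variance model without trend and robust fitting (0.0853). Its log2 change in these fits lay between -0.24 and -0.21. stmn1.S was at -0.08 ± 0.14. Among the EB genes, mapre1.L was at 0.13 ± 0.07, mapre2.S at -0.24 ± 0.10 (limma adjusted p = 0.220) and mapre3.S at 0.03 ± 0.07 (SE), and none of the 4 tested probe sets passed.

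The only increase was map1lc3a.S. LC3 proteins are attached to the membrane of forming autophagosomes, and the symbol comes from their first isolation with the microtubule protein MAP1. The signal was 58.9, 57.9 and 62.6 in control and 129, 118 and 103 in depleted arrays, a wide gap with no overlap. It rose 1.94-fold, from 59.8 ± 2.44 to 117 ± 13.3 (SD, n = 3), a log2 change of 0.96 ± 0.10 (SE; limma adjusted p = 5.25e-04), also when any one array was left out. The other tested LC3 genes did not pass: map1lc3b.S was at 0.04 ± 0.09 and map1lc3c.L at -0.16 ± 0.09 (adjusted p = 0.378).

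**Figure D3:**
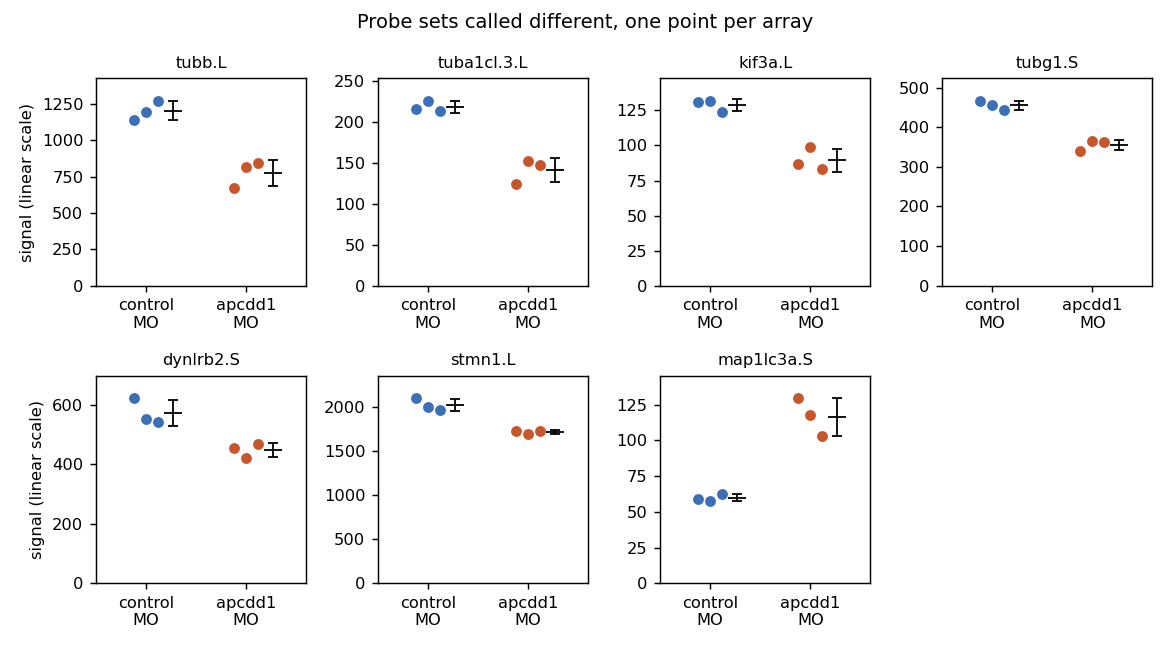
Signal on a linear scale in each array (points, batches 1 to 3 from left to right) with the group mean and SD (black, n = 3) for the 7 called probe sets, from the largest fall to the rise. In each panel the 3 control and the 3 depleted arrays do not overlap, as for 24.7% of all tested probe sets. The panels were chosen by adjusted p on these same arrays, so the separation adds no further support. Differences run from 1.18-fold for stmn1.L to 1.94-fold for map1lc3a.S.

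Both homeologs were bright enough to compare for 13 genes of the family. For each, the log2 signal of L minus that of S was formed per array and compared between the groups, over 1385 homeolog pairs of the whole table. None of the 13 differed at an adjusted p of 0.05 in limma, and 1 had an unadjusted p under 0.05, against 11.6% and 26.0% of all pairs. The median size of the difference in log2 change was 0.12 for the 13 and 0.11 for all pairs. The homeologs had the same sign in 6 of the 13, against 61.6% of all pairs.

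Of the 7 called members, only tubg1.S and stmn1.L had a pair in this comparison. For tubg1 the difference, L minus S, was 0.35 ± 0.18 (SE; 95% interval -0.06 to 0.76, adjusted p = 0.265 in limma). This value turns on 1 array, since tubg1.L read 70.9, 43.7 and 64.4 in depleted arrays, and without depleted 2 the difference was 0.58 and was called (adjusted p = 0.0163). For stmn1 the difference was -0.16 ± 0.13 (interval -0.46 to 0.14, adjusted p = 0.505). For map1lc3a, whose L homeolog is dim, the fit without the filter gave -0.74 and called the pair unequal (adjusted p = 0.0176 in limma). map1lc3a.L read 5.99, 5.80 and 4.65 in control and 6.73, 6.32 and 5.95 in depleted arrays. The lowest signals of the arrays are 3.56 to 3.82, so whether the L homeolog changed cannot be judged there. The pair nearest the threshold before adjustment was kif15, with -0.18 ± 0.08 (limma adjusted p = 0.186). The closest pairs were those of kif22, kif20a and tbcb, with differences of 0.02 ± 0.07, -0.02 ± 0.06 and 0.01 ± 0.16. Probe sets of one homeolog may also bind RNA of the other, which would bring the values of a pair closer.

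**Figure D4:**
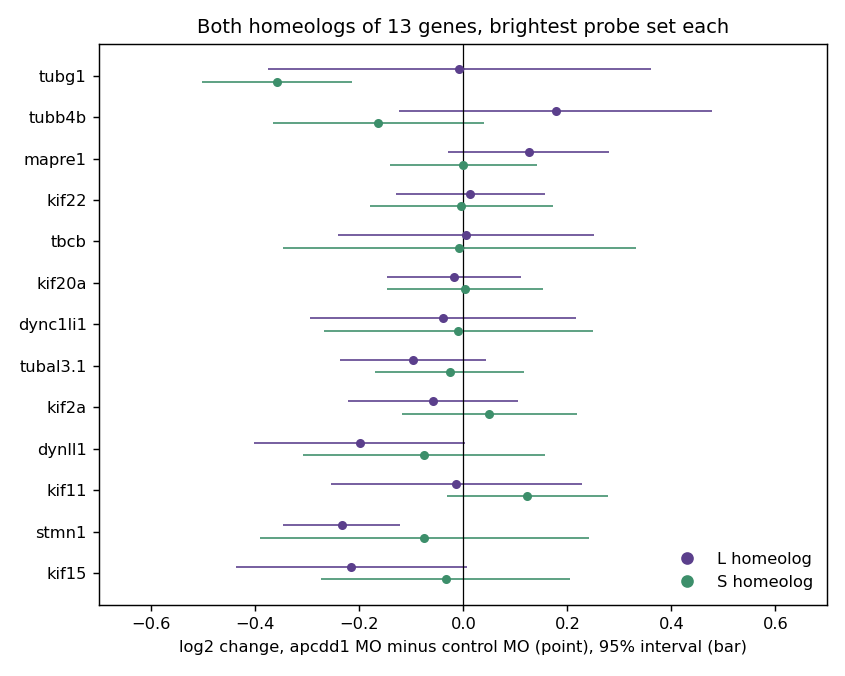
Log2 change of the L homeolog (purple) and the S homeolog (green) for 13 genes, with 95% intervals from limma, ordered by their difference. The intervals overlap in every pair, and tubg1 and tubb4b lie farthest apart, by 0.35 and 0.34.

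The spread within a group was like that of the array at large. The highest over the lowest of 3 control arrays had a median of 1.13 for the members and 1.14 for all tested probe sets, and among depleted arrays 1.11 and 1.13. A few members stood out for their control batches alone. kif21a.L, a neuronal type of transport kinesin, read 419, 276 and 184 in control batches 1, 2 and 3, a 2.28-fold range, and 305, 298 and 316 in depleted arrays. kif18a.L and a tbcb.S probe set had ranges of 1.72 and 1.59 in control, also with batch 1 highest and batch 3 lowest. For these genes the 3 depleted arrays stayed within 1.14-fold of each other.

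In all, 33 probe sets of 27 genes were too dim to test, with array signals from 4.29 to 23.0. They include the 6 probe sets of stmn2, stmn3 and stmn4, stathmins of the nervous system (4.42 to 10.9), those of tubb3.L, a beta tubulin of neurons, tubb6.L and tubb6.S (5.97 to 8.86), and 6 alpha tubulin probe sets (4.29 to 13.7). The transport kinesin kif13b.L and the mitotic kinesin kif18b.L were among them. The probe sets with both symbols of stmn2 and of tuba8 were dim as well. Whether these transcripts were present could not be judged without detection calls.

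Other genes of the same machinery were taken in lists by function, each gene by its brightest probe set only. The background, 6.62% called, is over all tested probe sets, so further probe sets of a gene count there but not in the lists. Of 58 tested genes of the spindle, kinetochore and cytokinesis, 1 rose and 2 fell (5.17% called, median -0.01). The falls were in incenp.L and birc5.S, which encode proteins of the chromosomal passenger complex of dividing cells. incenp.L went from 604 ± 24.1 down to 439 ± 21.6 (SD, n = 3; limma adjusted p = 0.00304). birc5.S went from 1960 ± 132 down to 1419 ± 43.4 (SD, n = 3; limma adjusted p = 0.00189). Their homeologs incenp.S and birc5.L were at -0.11 ± 0.06 and -0.14 ± 0.08 and did not pass. Other genes of that complex did not pass either and differed in sign, with aurkb.L at 0.23 ± 0.07 (no overlap), aurkb.S at 0.20 ± 0.08 and cdca8.L at -0.10 ± 0.08 (SE). zwilch.S, which brings dynein to kinetochores, rose from 105 ± 2.50 to 166 ± 6.12 (limma adjusted p = 7.54e-04). Of 24 dynactin and dynein adaptor genes 1 rose (4.17%), dctn3.S from 44.1 ± 3.16 to 62.1 ± 5.77 (limma adjusted p = 0.0216), and ndel1.L and dctn5.S, at 0.32 ± 0.09 and -0.33 ± 0.10, did not pass. The groups did not overlap in 20 of the 58 spindle genes (34.5%) and 8 of the 24 dynactin genes (33.3%), against 24.7% of all. In limma 15 of the 58 and 6 of the 24 had an unadjusted p under 0.05, against 19.0% of all.

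Of 19 genes listed around the chaperonin and prefoldin that fold tubulin and actin, 1 rose and 2 fell (15.8%), with a median of -0.10. The list also takes in arl2.L and pdcl3.L, which belong to neither complex. cct7.L fell from 407 ± 11.1 to 295 ± 3.80 (SD over 3 arrays; adjusted p = 0.00212 in limma) and cct4.S from 613 ± 21.0 to 506 ± 31.6 (adjusted p = 0.0412). cct6a.S rose from 1852 ± 27.9 to 2164 ± 86.1 (adjusted p = 0.0293 in limma). The homeologs cct7.S and cct4.L were at -0.02 ± 0.07 and -0.15 ± 0.07. Nothing passed among 4 genes of kinesin light chains and adaptors, where kifap3.L had the lowest p and klc4.L was at 0.05 ± 0.10, or among 6 tubulin-modifying enzymes, where atat1.S, an alpha tubulin acetylase, was at -0.26 ± 0.09. Of 9 other microtubule-binding genes none passed, with a median of 0.14, ckap4.S at 0.25 ± 0.09, fignl1.L at 0.14 ± 0.07 and clasp1.S at 0.16 ± 0.08 (SE). In the order given, the groups did not overlap in 36.8%, 25%, 16.7% and 44.4% of these 4 lists, against 24.7% of all.

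Markers of tissues and cell types, those of the sampled dorsal side included, moved between the same arrays, and their part in the results above was not tested. Over all probe sets 3.61% were called lower and 3.00% higher. The sums given here run over all markers found for a list, those too dim to test included. Of 18 tested markers of the organizer and dorsal mesoderm 6 fell and 0 rose. The summed signal of that list was 19436 to 22307 in control and 17539 to 18312 in depleted arrays. Of 9 ventral mesoderm markers 3 rose (3792 to 4024, and 4451 to 4753), while log2 changes were positive for 5 and negative for 4. The gap in the ventral sums rests largely on both homeologs of ventx2.1. Their mean signals, S before L, were 991 and 1115 in control arrays against 1370 and 1379 in depleted ones. Of 8 markers of non-neural ectoderm 4 rose (1965 to 2500, and 3083 to 3366). The gap in the ectoderm sums rests on foxi1.L, which rose from 54.2 ± 5.65 to 718 ± 30.5 (SD over 3 arrays; limma adjusted p = 7.74e-08): without it the sums overlap, at 1913 to 2439 and 2338 to 2643. In the same list tfap2a.S was at -0.23 ± 0.08 (SE), without overlap and not called. Germ plasm markers had 2 of 5 lower (3171 to 3235, and 1992 to 2758) and endoderm markers 2 of 13 lower, with overlapping sums. The endoderm sums rest largely on vegt.S and vegt.L, neither called, with means of 5341 and 4716 in control and 5323 and 4569 in depleted arrays. The 2 lower ones, gata6.S and a2m.S, had means of 386 and 396 in control and 213 and 234 in depleted arrays. Of 6 tested markers of multiciliated cells, ccno.S fell (sums 1055 to 1161, and 911 to 940). The other 5 were not called: log2 changes were -0.23 for ccno.L, -0.35 for foxj1.L and -0.19 for foxj1.S, but 0.35 for mcidas.S, each without overlap, and -0.01 for dnai1.L with overlap. Over all tested probe sets 12.8% were lower and 11.9% higher without overlap. The ciliary structure genes dnah9.S, tekt2.L and tekt2.S were too dim to test. The gap in the multiciliated sums rests largely on both homeologs of ccno. Mean signals of ccno.S and ccno.L were 207 and 615 in control arrays against 145 and 524 in depleted ones. The ratio of the 3' to the 5' gapdh signal, which reads RNA integrity, did not overlap either, with 1.77 ± 0.03 for control and 1.87 ± 0.07 for depleted embryos (SD, n = 3).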

How the data were processed

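The table holds signal intensities of 32634 probe sets on 6 one-colour Affymetrix arrays, deposited by the authors on a linear scale. Per the submitters' processing notes they were made with MAS5; version, scaling and detection calls are not given in the sources used here. The values make this uncertain: the lowest signals are 3.56 to 3.82, and at equal rank the arrays differ by at most 0.13 on the log2 scale, so they may already be normalized between arrays, and quantile normalization then changes little. Median signals ran from 44.4 to 45.7 per array. Probe sets were named from the platform annotation: 15504 carry 1 symbol, 279 several and 16851 none here. All 107 gene numbers of the family were found in the RefSeq table of Xenopus_laevis_v10.1, with the same symbols. No sequences or coordinates are given.

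Signals were log2-transformed unscaled. After setting apart 160 control probe sets, those with a mean log2 signal over all arrays under the 40th percentile (4.48, a signal of 22.3) were left out, leaving 19484. limma 3.58.1 in R 4.3.3 (lmFit, eBayes with trend and robust) compared the groups, two-sided, with Benjamini-Hochberg adjustment over all probe sets and a threshold of 0.05. The number of arrays limits the precision, and an exact permutation test of 3 against 3 cannot go below p = 0.1. Homeolog pairs used the brightest probe set of each homeolog, robust and without trend. The related lists and markers also used the brightest probe set of each gene, while family members were counted over all their probe sets. The fits were tested on simulated data.

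Members, roles and lists were chosen with earlier results of these data known. Named are all called members, their homeologs and other probe sets, and the 3 lowest p per role and per related list. Gamma tubulin complex genes and folding cofactors are given as a range. Fewer are named for kinesin light chains and tubulin-modifying enzymes. Further members and markers are given for role or spread, chosen after their values were seen. Leaving out foxi1.L was likewise chosen after the values were seen. Alternatives were median centring, quantile normalization, adding 16 or 64 before the logarithm, no filter, a 60th percentile filter, the batch number as a block, other variance models, leaving out each array, only plain _at probe sets, and for homeologs the mean over probe sets.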

Additional observations from a re-analysis of the deposited data

Results flagged for a closer look

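Among the 33 members left out as dim, tubb2b.S, the N-tubulin gene of primary neurons, was called lower in the fit without the filter, with a log2 change of -0.73 (adjusted p = 0.00534 in limma). It stands here because it lies outside the main measurement. Its signal was 19.1, 22.5 and 17.7 in control and 12.6, 11.9 and 11.1 in depleted arrays, 19.8 ± 2.48 and 11.9 ± 0.75 (SD, n = 3), without overlap. Of its 6 values only that of control 2 reaches 22.3, the level the filter asks of the mean, and without detection calls the size of the fall is uncertain.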

How the results depend on the processing

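The main counts were 1 member higher, 6 lower and 0 unequal homeolog pairs. Quantile normalization, median centring and both added constants kept the same 7 calls. The higher count was 0 with the 60th percentile filter, which left map1lc3a.S untested, and 2 with array weights, where the lower count was 11. With each probe set's own variance alone, 0 members were called higher and 0 lower, with adjusted p between 0.054 and 0.156 for the 7, and 196 of all probe sets were called against 1289. Leaving out single arrays gave 3 to 7 lower and 1 higher throughout, 0 to 1 unequal pairs, and 669 to 1430 calls over all probe sets. Unequal pairs were 1 with 64 added (tubg1) and 2 without the filter (map1lc3a and map1lc3b, whose L homeologs are dim). Medians of the mitotic and transport kinesins stayed negative in all alternatives run for them, from -0.06 to -0.02 and from -0.21 to -0.11. That of cytoplasmic dynein 1 was 0.01 without control 1 or depleted 1. No pairing of the arrays by batch number was seen: deviations of same-numbered arrays correlated at 0.053, 0.021 and -0.268, and not every array correlated best with its own number. These deviations are from means of 3 arrays and balance out within a group, so the check cannot settle whether batches were paired. With the replicate block 1 member was higher and 5 lower, stmn1.L being the one lost, as also without trend and robust fitting (1 higher, 5 lower). Causes were not tested beyond what an alternative's construction shows.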
